A study of Mus musculus with 3 samples.

Results

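Classical cadherins are calcium-dependent adhesion molecules whose extracellular domains bind cadherins of the neighbouring cell, and whose cytoplasmic tails carry the catenins. p120-catenin binds near the membrane and holds the cadherin at the cell surface, beta-catenin binds further along the tail, and alpha-catenin links beta-catenin to the actin cytoskeleton. Together they form the adherens junction of epithelial cells, in which E-cadherin is the main cadherin. Its loss, often with a gain of N-cadherin, is the best-known mark of epithelial-mesenchymal transition. The 8 genes described here are 5 cadherins (Cdh1, Cdh2, Cdh3, Cdh6 and Cdh11) and 3 catenins (Ctnna1, Ctnnb1 and Ctnnd1), chosen by name from the 19935 genes with a value. Each was represented by the single probe set annotated to that gene alone.

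Transcript levels were read on 3 Affymetrix arrays from NMuMG cells, an established epithelial cell line of the mouse mammary gland that was grown with serum and puromycin in all groups. The control cells (mock, n = 1) carried the empty pCAGIP vector, and the other arrays held stable lines with pCAGIP-FLAG-MafK, 1 array of clone 4 and 1 of clone 10 (MAFK, n = 2). MAFK belongs to the small MAF proteins, which bind DNA through a basic leucine zipper domain and have no activation domain. No age, further allele or further agent is given for any group. Each clone is a single line, whereas the mock cells are not called a clone, so an effect of the transgene and an effect of cloning cannot be told apart. The labels do not say that the arrays came from separate cultures beyond the clones. A p-value here reflects the spread between the 2 MAFK arrays, for the gene itself and, through limma's prior, for other genes. That spread may be technical, and it holds none of mock. Having only 3 arrays limits the precision of every value. The log2 value of Mafk was 8.49 for mock, 8.74 for clone 4 and 8.59 for clone 10. Whether its probe set detects the transgene was not analysed here.

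Values are log2 RMA values per probe set, with array medians of 6.89 to 6.93. RMA is a background correction, quantile normalization and median-polish summary of the probes, and it returns identical values for many probe sets. Of all genes 34.3% had an equal value on all 3 arrays and 55.5% had an equal value in both clones. Differences are log2 values minus mock. The words rose and fell are kept for genes that were 2-fold or more from mock in each clone, both on the same side, and for which limma's moderated test across all genes gave a Benjamini-Hochberg adjusted p under 0.05.

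Of the 8 genes, 1 fell, none rose, and 1 more was over 2-fold below mock in each clone but did not pass the test. Cdh1 was the gene that fell and Cdh6 the other. Cdh2, which encodes N-cadherin, was slightly lower and not higher, Cdh3 and Cdh11 had the same value on all arrays, and none of the 3 catenin genes was 2-fold apart. Over all genes, 0.762% fell, 0.401% rose, 1.81% lay 2-fold or more below mock in each clone and 1.19% lay 2-fold or more above it. The median difference of the 8 genes was -0.14 in clone 4 and -0.13 in clone 10, against 0 over all genes in both clones. No member lay above mock in both clones, and 5 lay below it in both, where 33.7% of all genes were above and 17.9% below in both.

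**Figure D1:**
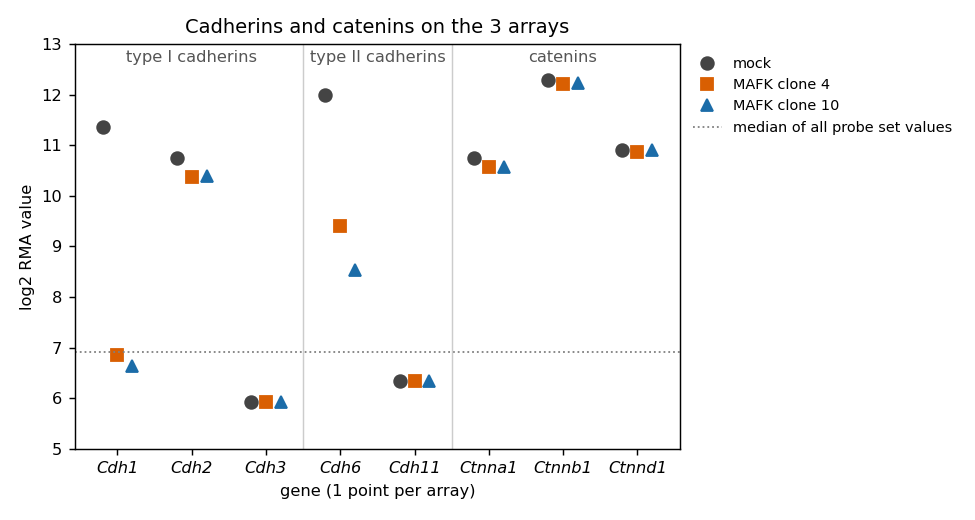
Log2 RMA values (y axis) of the 5 cadherin and 3 catenin genes (x axis), 1 point per array, for mock, MAFK clone 4 and MAFK clone 10; the dotted line is the median of all probe set values. The mock points of Cdh1 (11.35) and Cdh6 (11.98) stand far above those of both clones, while the 3 points of the other 6 genes lie close together.

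Among the type I cadherins, Cdh1, the gene of E-cadherin, read 11.35 in mock against 6.85 in clone 4 and 6.64 in clone 10. Both clones lay far below mock and close to the array medians, and the gap from mock was many times the gap between the clones. The differences correspond to 22.6-fold in clone 4 and 26.1-fold in clone 10. The mean of the clones was 6.75 ± 0.15 (SD, n = 2), and the difference of -4.60 ± 0.13 (SE) had a 95% interval of -5.01 to -4.19 and a limma adjusted p of 0.0282. By the smaller of the clones' differences it ranked 6 among all genes that were lower. RMA values compress differences near the bottom of the range, so the fold describes these arrays on the RMA scale. In RNA from whole cultures, fewer cells with the transcript and less transcript per cell cannot be told apart.

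Cdh2, the gene of N-cadherin, read 10.74 in mock against 10.37 in clone 4 and 10.39 in clone 10. Both clones were below mock, by 1.29-fold and 1.27-fold, and differed from each other by 0.02. The difference of -0.36 ± 0.07 (SE) had a 95% interval of -0.58 to -0.13 and a limma adjusted p of 0.173. The adjusted p was 0.0263 with arrays centred on their medians, 0.0284 with limma's usual prior and 0.0419 with chromosome medians subtracted, still with a difference under 2-fold. The 95% interval lies wholly below 0, although it rests on the spread of the 2 clones combined with that of other genes. A single mock array has no spread, and that of the clones stands in for it. Cdh3, the gene of P-cadherin, a cadherin of basal mammary cells, read 5.92 on every array, below each array's median. Median polish can give such equal values, and the 95% interval of the difference ran from -0.22 to 0.22. With arrays centred on their medians Cdh3 too had a limma adjusted p under 0.05 (0.0402). Its difference of -0.03 there is the shift of the medians alone.

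Cdh6, the gene of K-cadherin, a type II cadherin known from kidney and neural development, was the other cadherin far from mock. It read 11.98 in mock against 9.40 in clone 4 and 8.53 in clone 10. Both clones were below mock, 5.99-fold and 11.0-fold respectively, and clone 10 was 1.83-fold below clone 4. The mean of the clones was 8.96 ± 0.62 (SD, n = 2), and the difference of -3.02 ± 0.45 (SE) had a 95% interval of -4.47 to -1.57. Because the clones differed from each other, the limma adjusted p was 0.131 and Cdh6 did not pass the test. By the smaller of the clones' differences it ranked 55 among the genes that were lower. Of all genes 0.617% differed between the clones by as much as Cdh6 or more, and it was the 1 member whose clones were at least 1.5-fold apart, against 1.46% of all genes. With 1 array of each clone this difference between them has no test.

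RefSeq promoter windows, of 300 bases from 250 before to 50 after a gene's start, were matched for 3 of the 8 genes (Cdh6, Ctnnb1 and Ctnnd1, 5 windows in all). They were searched on both strands for CACCTG, the E-box bound by Snail and Zeb repressors, for TGCTGA, one arm of a MAF recognition element, and for TGACNNNGC, the core of the antioxidant response element bound by CNC factors with small MAF proteins. Of 32851 windows of all genes, 20.2%, 19.5% and 12.4% held these motifs. The window of Cdh6, shown because its level differed most among the 3 genes, lies on the minus strand at chr15:13173626-13173925 of GRCm38.p6. It held none of the 3 motifs, so no letter is in capitals.
Cdh6: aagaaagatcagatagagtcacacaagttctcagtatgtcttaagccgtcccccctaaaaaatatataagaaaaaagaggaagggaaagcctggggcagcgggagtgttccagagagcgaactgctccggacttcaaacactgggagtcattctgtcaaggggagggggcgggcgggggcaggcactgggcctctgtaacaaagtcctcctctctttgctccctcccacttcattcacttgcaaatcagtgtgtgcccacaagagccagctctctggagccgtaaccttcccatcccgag
That window was 53.0% G or C with 8 CG dinucleotides, against medians of 52.7% and 7 over all windows. The absence of a match says only that these letters are not in this window.

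Cdh11, the gene of the type II cadherin of mesenchymal and bone-forming cells (OB-cadherin), read 6.33 on all 3 arrays, below each array's median. It shares that lack of any difference with Cdh3. A further 3 probe sets carry Cdh11 together with 2 other gene names and read between 11.27 and 12.38 over the arrays. Their signal cannot be assigned to Cdh11 and was not used for it. Of the 8 genes, 2 had equal values on all arrays, as 34.3% of all genes did.

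**Figure D2:**
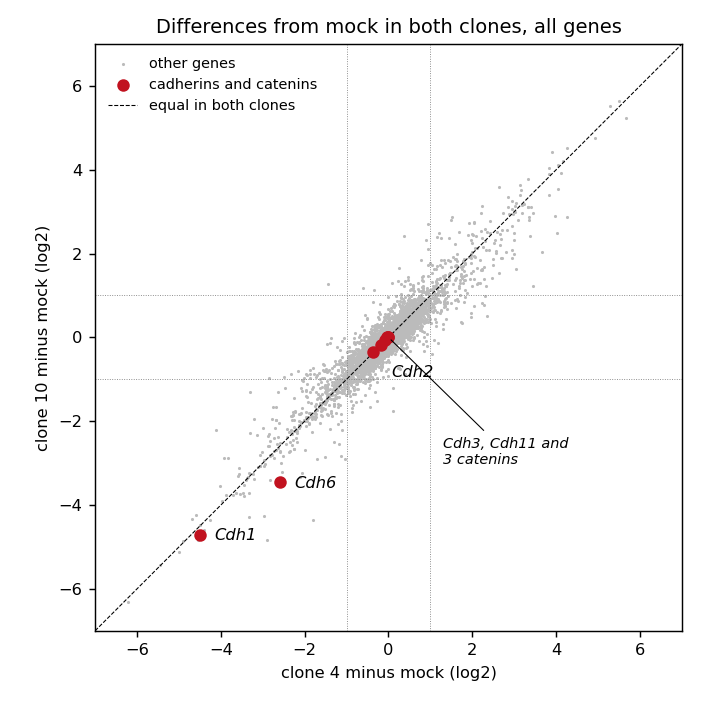
Log2 difference from mock in clone 4 (x axis) and clone 10 (y axis) for all 19935 genes (grey) and the 8 cadherin and catenin genes (red); dotted lines mark 2-fold and the dashed line equal differences. Cdh1 lies near the dashed line at -4.50 and -4.71, Cdh6 lies below it at -2.58 and -3.46, and the other 6 genes lie within 2-fold of mock.

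The catenin genes, whose products bind the cadherin tail, differed from mock by at most 1.13-fold in either clone. Ctnnb1, the gene of beta-catenin, which is also the transcriptional co-activator of Wnt signalling, read 12.30 in mock against 12.20 in clone 4 and 12.23 in clone 10. All 3 arrays were close together, with a difference of -0.08 ± 0.07 (SE), a 95% interval of -0.31 to 0.15 and a limma adjusted p of 0.891. Ctnna1, the gene of alpha-E-catenin, read 10.75 in mock and 10.56 in both clones. Its difference of -0.18 ± 0.07 (SE) had a 95% interval of -0.40 to 0.04 and a limma adjusted p of 0.365. As for Ctnnb1 (0.0408), centring the arrays gave it an adjusted p under 0.05 (0.0219), and so did the usual prior (0.0302). Centring did the same for Cdh3 and Cdh11 (0.0402 for both), which were equal on all arrays. Ctnnd1, the gene of p120-catenin, read 10.90 in mock against 10.87 in clone 4 and 10.90 in clone 10. Clone 10 equalled mock, and the 95% interval ran from -0.24 to 0.21 with a limma adjusted p of 1. None of these intervals includes a 2-fold change. The direction for Ctnnd1 flips after a second quantile normalization (0.016), so it has no settled direction.

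Among the 5 windows, 1 held a searched motif: the window of Ctnnb1 at chr9:120933328-120933627 of GRCm38.p6, on the plus strand, carries GCCGCGTCA. This is TGACNNNGC read on the other strand, begins at position -71 from the start on which this window is set, and overlaps no other motif searched. The other Ctnnb1 window is set on a start further upstream, and the match lies downstream of that start. It is shown, with the match in capitals, as the member window with a match to the element of CNC and small MAF factors, in a gene whose value hardly differed.
Ctnnb1: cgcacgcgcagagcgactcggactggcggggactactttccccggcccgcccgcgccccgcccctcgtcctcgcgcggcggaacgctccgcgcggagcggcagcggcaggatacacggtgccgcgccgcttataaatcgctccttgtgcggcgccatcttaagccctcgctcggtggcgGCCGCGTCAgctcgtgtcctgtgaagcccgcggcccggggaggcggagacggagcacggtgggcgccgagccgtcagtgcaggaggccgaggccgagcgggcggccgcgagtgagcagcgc
The match is a description of the letters, and 12.4% of all windows have one. The other Ctnnb1 window and both Ctnnd1 windows held none of the 3 motifs.

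In mouse, Cdh1, Cdh3 and Cdh11 lie on chromosome 8, whose genes stood slightly above mock as a whole. The mean difference of its 955 measured genes was 0.12 in each clone, the highest of 20 chromosomes, and 527 of them lay above mock in both clones against 62 below. On that chromosome 11 genes lay 2-fold or more below mock in each clone and 14 lay as far above, beside 1.81% and 1.19% of all genes. The difference of Cdh1 thus went against the shift of its chromosome, and after subtracting the chromosome's mean it was -4.72 with a limma adjusted p of 0.0492. Of the 5 nearest measured genes on each side of Cdh1, none was 2-fold apart in either clone. Cdh3, its immediate neighbour, and Smpd3, the gene of a neutral sphingomyelinase, had the same value on all arrays. Tango6, on the other side, read 8.44 in mock against 9.03 in clone 4 and 8.92 in clone 10, with a limma adjusted p of 0.144. The remaining neighbours (Slc7a6os, Prmt7, Zfp90, Has3, Chtf8, Utp4 and Sntb2) differed from mock by 0 to 0.26.

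**Figure D3:**
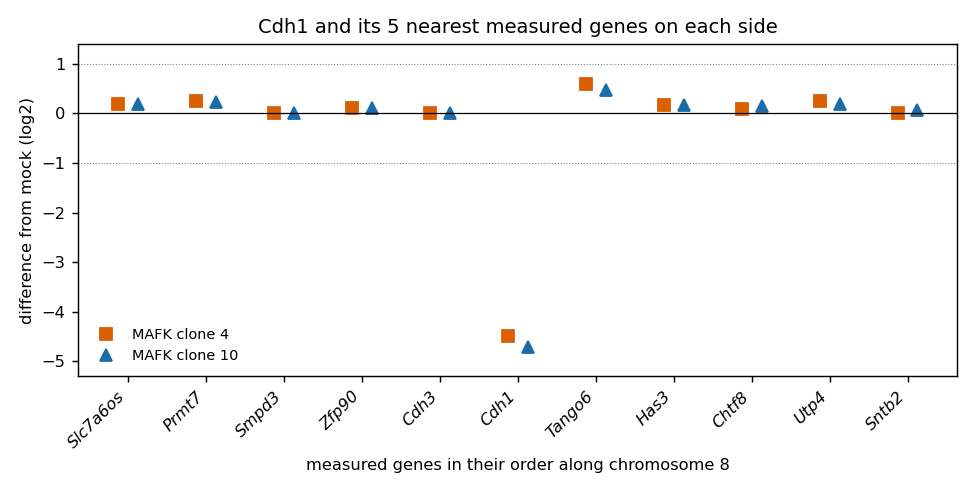
Log2 difference from mock (y axis) of Cdh1 and the 5 nearest measured genes on each side, in their order along chromosome 8 (x axis, order only), for clone 4 and clone 10; dotted lines mark 2-fold. Cdh1 lies at -4.50 and -4.71, while all 10 neighbours lie between 0 and 0.59.

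The genes whose differences from mock were most like those of Cdh1 were Mmp13, Upk1b, Vat1l, Ctsh and Ppbp, by Euclidean distance over the 2 clones' differences (0.13 to 0.43 on the log2 scale). These are the genes of a collagenase, a uroplakin, a vesicle amine transport protein relative, cathepsin H and a platelet chemokine. Of the 5, Vat1l also lies on chromosome 8. The genes most like Cdh6 were Anxa13, AW112010, Alcam, Vsig1 and Rnf128, at distances of 0.08 to 0.49. Alcam, which encodes an adhesion molecule of the immunoglobulin family that takes part in epithelial contacts, read 9.86 in mock against 7.31 in clone 4 and 6.65 in clone 10. Like Cdh6, these 5 genes lay 2-fold or more below mock in each clone and did not pass the test. A likeness over 3 arrays is a description only.

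Other genes of the junction and of its regulation were taken as 8 lists, with 119 different genes measured. Of these 119, 2 fell and 1 rose, and 5 lay 2-fold or more below mock in each clone against 2 above. The shares of all genes were 0.762%, 0.401%, 1.81% and 1.19%. At these shares most lists of 7 to 25 genes would hold no called gene, so an absence of calls says little about a list. The median difference of the 119 was 0 in both clones, as over all genes.

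Of 17 other cadherin genes none rose or fell, and 10 had equal values on all arrays, as 34.3% of all genes did. Cdh16, the kidney-specific cadherin, which is also on chromosome 8, read 6.58 in mock against 8.77 in clone 4 and 7.87 in clone 10. Both clones were at least 2-fold above mock, though far apart from each other (limma adjusted p = 0.239). Cdh17, the liver-intestine cadherin, read 8.16, 6.95 and 7.10 in the same order, 2.20-fold lower (limma adjusted p = 0.0735). It passed with arrays centred on their medians (0.0402) or the usual prior (0.0457). Centring also gave 0.0402 to Cdh3 and Cdh11, equal on all arrays, so its adjusted p does not by itself show a difference. The usual prior is estimated with the genes whose clones are equal, so a pass under it is limited too. Cdh13, which encodes the membrane-anchored T-cadherin without a cytoplasmic tail, read 9.30, 10.11 and 10.14 (limma adjusted p = 0.0711). Cdh5, the endothelial cadherin, read 6.29 on every array.

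None of the 7 relatives of the catenins rose or fell. Ctnnal1, which encodes alpha-catulin, a relative of alpha-catenin, read 9.30 in mock against 8.06 in clone 4 and 7.87 in clone 10, 2.53-fold lower (limma adjusted p = 0.0731). It passed with arrays centred on their medians (0.0402), the usual prior (0.0497) or chromosome medians subtracted (0.0472). The passes under centring and under the usual prior have the limits given for Cdh17. Both clones lay below mock by much more than their own gap. Pkp4 and Arvcf, p120-catenin relatives that also bind cadherin tails, were 1.73-fold and 1.43-fold higher, with limma adjusted p of 0.0718 and 0.127. Jup, the gene of plakoglobin, which can take the place of beta-catenin at the junction, was 1.48-fold lower.

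Of 25 nectin and junction partner genes, 2 fell and none rose, and 13 were below mock in each clone while 5 were above, beside 17.9% and 33.7% of all genes. Wtip, which encodes a LIM protein of the Ajuba family found at cell junctions, read 10.08 in mock against 7.30 in clone 4 and 7.28 in clone 10. The clones were nearly equal and 6.91-fold below mock (limma adjusted p = 0.0256). Tjp1, the gene of ZO-1, a scaffold of tight and adherens junctions, read 11.01, 9.55 and 9.51 and fell 2.79-fold (limma adjusted p = 0.0394). Ajuba, a relative of Wtip that binds alpha-catenin, was 1.92-fold lower (limma adjusted p = 0.111). Vcl, the gene of vinculin, which joins alpha-catenin to actin under tension, read 11.29 in mock against 9.88 in clone 4 and 10.51 in clone 10. Clone 4 was more than 2-fold below mock and clone 10 was not (limma adjusted p = 0.275). Nectin1, an immunoglobulin-like adhesion molecule that joins the cadherin junction through afadin, read 6.60, 7.39 and 8.45, higher in both clones but at least 2-fold so only in clone 10 (limma adjusted p = 0.408). The afadin gene Afdn read 10.51, 10.55 and 10.48.

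**Figure D4:**
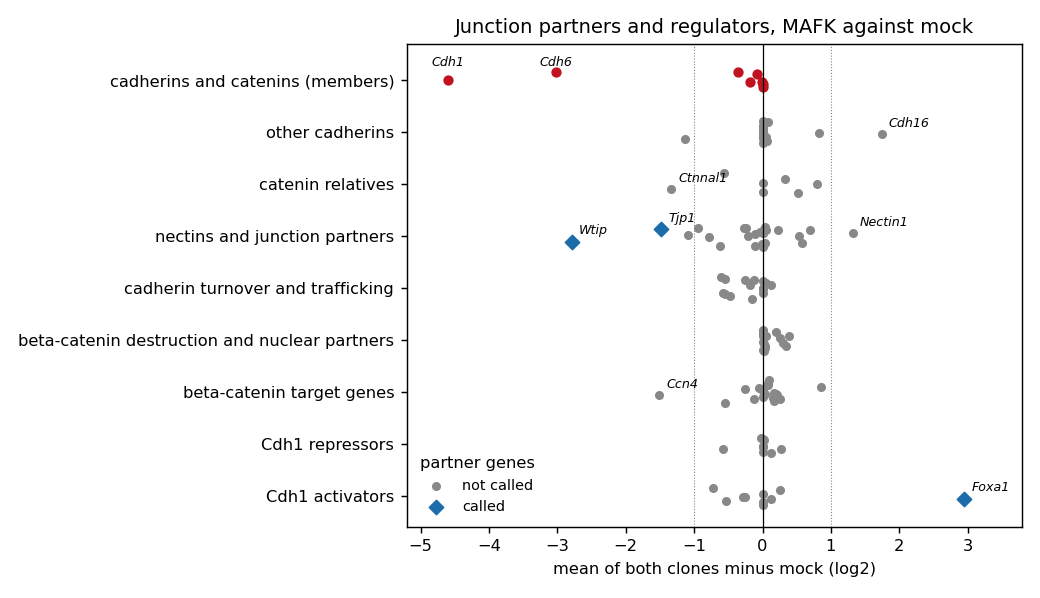
Mean of both clones minus mock on the log2 scale (x axis) for the 8 cadherin and catenin genes (red, whatever their test) and for each gene of 8 partner lists (rows; grey not called, blue diamonds called); dotted lines mark 2-fold and points are jittered vertically. Wtip and Tjp1 lie left of the 2-fold line and Foxa1 right of it as the called partners, and most of the other genes lie near 0.

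Of 15 measured genes of cadherin turnover and trafficking none rose or fell, while 9 lay below mock in both clones and 2 above (17.9% and 33.7% over all genes). Adam10, the gene of the protease that sheds the E-cadherin and N-cadherin ectodomains, was 1.46-fold lower (limma adjusted p = 0.109). Rab11a, the gene of a recycling endosome GTPase, was 1.46-fold lower and Exoc4, the gene of an exocyst subunit, was 1.53-fold lower, with limma adjusted p of 0.121 and 0.167. This list had a median difference of -0.17 in clone 4 and -0.16 in clone 10.

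The genes that handle free beta-catenin lay close to mock. Of 19 measured genes of its destruction complex and nuclear partners none rose or fell. Among them 9, such as Apc and Axin1, did not differ between any arrays, as 34.3% of all genes did not. In both clones 8 lay above mock and none below, beside 33.7% and 17.9% of all genes. The largest by the smaller of the clones' differences were Amer1, a partner of the destruction complex (1.31-fold higher), Tcf7l1, a nuclear partner (1.27-fold), and the inhibitor gene Ctnnbip1 (1.23-fold), with limma adjusted p of 0.166 to 0.274. Of 19 measured beta-catenin target genes none rose or fell. Axin2, the most general of these targets, read 6.62 in mock and 6.88 in both clones, a 1.19-fold difference. These values lie below each array's median, where a difference may be compressed. Ccnd1 read 12.22 on all arrays. Ccn4, a matricellular protein gene also known as Wisp1, was 2.86-fold lower (limma adjusted p = 0.0972), and passed with arrays centred on their medians (0.0466). That pass has the limit of centring given for Cdh17. Znrf3, whose product removes Wnt receptors, was 1.81-fold higher and Myc was 1.47-fold lower, with limma adjusted p of 0.140 and 0.236.

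Of 9 repressors of Cdh1 none rose or fell. Snai1 was lower in both clones, by -0.74 and -0.41 (limma adjusted p = 0.297), Twist1 was 1.21-fold higher (limma adjusted p = 0.235), Snai2 was equal to mock in clone 4 and higher by 0.24 in clone 10, and Zeb2 was equal on all arrays. Zeb1 read 9.44 in mock against 9.39 in clone 4 and 9.44 in clone 10. Among 10 genes that sustain Cdh1 or the epithelial state, 1 rose and none fell. Foxa1, the gene of a pioneer factor of luminal cells, read 6.39 in mock against 9.48 in clone 4 and 9.19 in clone 10. It rose 7.73-fold (limma adjusted p = 0.0439), and the call was lost under a second quantile normalization (0.0621), with the mean of a gene's probe sets (0.0516) and after subtracting chromosome means (0.0593). The grainyhead factor gene Grhl3 was 1.66-fold lower, and the splicing regulator gene Esrp2 was 1.45-fold lower, with limma adjusted p of 0.0835 and 0.112.

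Markers of cell types were read beside the cadherins. Of 10 epithelial markers, Krt8, Krt18 and Krt19 read between 10.92 and 13.67 on all arrays, while Epcam read 5.58 on all arrays, below the array medians. Krt18 was 2.05-fold and 1.82-fold below mock in clones 4 and 10, in the same direction as Cdh1. Krt8 was 1.41-fold and 1.28-fold below, and neither keratin was 2-fold apart in both clones. Ocln had a log2 difference of -0.24 in both clones. Other epithelial markers went the other way in clones 4 and 10: Krt19 (0.25 and 0.08), Krt7 (0.38 and 0.21), Cldn3 (0.25 and 0.27) and Cldn4 (0.007 in both). Cldn7 equalled mock in clone 4 and was 0.05 above it in clone 10. Without Cdh1, the mean of the epithelial markers was 8.43 in mock, 8.33 in clone 4 and 8.33 in clone 10. The mean of 8 basal and myoepithelial markers was 6.64, 6.62 and 6.59, with Krt14 1.63-fold and 1.72-fold below mock. The mean of 8 fibroblast markers was 6.78, 7.09 and 7.14. Pdgfrb rose, reading 6.78, 9.95 and 10.30, and was the 1 fibroblast marker 2-fold or more above mock in each clone, while Dcn was at least 2-fold lower. The higher mean in the clones depends on Pdgfrb, whose difference was the largest of the 8. Col1a2 was 1.81-fold and 1.49-fold above mock in clones 4 and 10, and Col1a1, Col3a1 and Thy1 were above by less. Pdgfra was 1.11-fold and 1.10-fold below mock, and Lum was equal on all arrays. All measured luminal, endothelial and immune markers lay below the array median in mock. The part of these differences in the fall of Cdh1 was not tested.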

How the data were processed

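The authors deposited 1 log2 value per probe set and array, which the submitters' processing notes credit to RMA. Per the labels' protocols, 100 ng of total RNA was labelled with Ambion's WT kit. The RMA version, probe filters and genome build are not given in the sources used here. Of 28815 probe sets, 21780 carried 1 gene symbol in the platform annotation, 1605 several and 5430 none; older symbols were replaced, by Entrez identifier, from a RefSeq gene table of GRCm38.p6 (21689 matched). The probe set with the highest mean stood for a gene.

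MAFK was compared with mock by limma 3.58.1 in R 4.3.3 on all 3 arrays, two-sided, with 1 residual degree of freedom. The variance prior (1.93 degrees of freedom, SD 0.0694) came from the 8873 genes whose clones differed and was applied to all genes. The fit was run on simulated data whose mock errors were drawn from the differences between the clones. It therefore cannot judge the calls against the spread of real mock arrays, which is unknown. Members, lists and this prior were chosen with earlier results of these data known. Named genes were the members, called list genes, the 3 largest others of each list, the neighbours of Cdh1 and the genes most like Cdh1; other genes named, including those most like Cdh6, were chosen after their values were seen. Alternatives varied the normalization, filter, prior, probe set rule, chromosome shift, fold threshold and clones. Figures used matplotlib 3.10.9.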

Additional observations from a re-analysis of the deposited data

How the results depend on the processing

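Cdh1 kept its direction and its call under all 9 alternatives that gave a test, with differences of -4.72 to -4.60 and limma adjusted p from 0.0152 (prior with an intensity trend) to 0.0492 (chromosome means subtracted, an alternative chosen after seeing the data). Cdh6 stayed lower without passing in all 9 (adjusted p 0.0771 to 0.141). No alternative gave another member a call, and 1 direction reversed: Ctnnd1 after a second quantile normalization, at 0.016 (from -0.014). Leaving out a clone leaves 1 array against 1 and no test; Cdh1 then differed by -4.71 or -4.50 and Cdh6 by -3.46 or -2.58.

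Counts over all genes moved more. The 80 genes called higher became 147 with arrays centred on their medians, 128 with the usual limma prior and 45 with chromosome means subtracted, and the 152 called lower became 292 with centring, 232 with the usual prior and 244 with chromosome medians subtracted. Of the partner genes, none was called higher after a second quantile normalization, with the mean of probe sets or with chromosome means subtracted (0 against 1), and 5 were called lower with centring and 4 with the usual prior (against 2). Ctnnal1 gained a call under 3 alternatives, Cdh17 under 2 and Ccn4 under 1. Centring shifts the clones by unlike amounts, so genes with equal clones then enter the variance prior, as they do under the usual prior. Subtracting chromosome medians also left unlike median differences (-0.022 in clone 4, -0.019 in clone 10), so such genes can enter there too. The part of this in the gained calls was not tested. Without reaching 2-fold, Cdh2 had an adjusted p under 0.05 under 3 alternatives, Ctnna1 under 2, and Ctnnb1, Cdh3 and Cdh11 under 1 each. For Cdh3 and Cdh11, equal on all arrays, this came with centring (limma adjusted p = 0.0402 for both). Their difference of -0.03 there is the shift of the medians alone, so an adjusted p under centring does not by itself show a difference between arrays. At 1.5-fold, 507 genes were higher and 723 lower in both clones, with 6 and 9 partner genes. The causes were not tested. No paired analysis was possible because mock has a single array and the replicate numbers, given in accession order, pair no samples. With 1 mock array, its spread is unknown, and values near the array medians limit the size of the folds.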
